A study of Mus musculus with 8 samples.

Results

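Lysosomal cathepsins, legumain and cystatin C were followed as 10 genes: the cysteine cathepsins Ctsb, Ctsc, Ctsh, Ctsk, Ctsl, Ctss and Ctsz, the aspartic cathepsin Ctsd, the asparaginyl endopeptidase Lgmn and the secreted cysteine protease inhibitor Cst3. The members were named by symbol, and every probe set that listed 1 of these symbols alone was taken, 20 probe sets in all. All 10 genes were among the 13854 genes tested, and where a gene had several probe sets, the brightest on average gives its value. The arrays measured total RNA of the first right lung lobe of male ICR mice, an outbred strain, aged 5 to 6 weeks.

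The SWCNT groups had received 1 instillation into the trachea of 0.5 mg of single-walled carbon nanotubes. The carrier was 50 µl of the surfactant Pluronic F-68 (PF68) at 0.1%, which the PF68 groups received without tubes. Lungs were taken on day 7 or day 1, with 2 arrays each for SWCNT day 7, PF68 day 7, SWCNT day 1 and PF68 day 1. All mice went through pentobarbital anaesthesia, a neck incision and instillation, and each day had PF68 controls of its own. No animal is named in the labels, which speak of biological replicates. The p-values rest on the spread between the 2 arrays of a group, pooled over the 4 groups, and that spread could be technical. Lungs that were never instilled were not analysed here. The study asked which lung transcripts respond to the nanotubes relative to the solvent.

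Cathepsins are made as inactive precursors, carried to endosomes and lysosomes largely through mannose 6-phosphate receptors, and switched on by the acid there. In the lung they are abundant in macrophages, where they break down engulfed material, trim the invariant chain for antigen presentation and, once secreted, cut elastin and collagen. Legumain helps to process several of the cathepsins, and cystatin C holds the cysteine cathepsins in check outside the cell.

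Promoter sequences from RefSeq (GRCm38.p6) were available for 8 of the 10 genes, and 3 are shown. They belong to Ctsk, with the largest day 7 rise of the 10, Ctss, with the largest day 1 fall, and Ctsd, the aspartic member. Each is the 250 bases upstream of the annotated start, 5′ to 3′ on the strand of the gene. Capitals mark the core of the interferon-stimulated response element (2 copies of GAAA with any 2 bases between them) or the E-box CACGTG, which transcription factors of lysosomal genes such as TFEB can bind. The sequences are at chr3:95498960-95499209 (plus strand) for Ctsk, chr3:95526536-95526785 (plus strand) for Ctss and chr7:142387828-142388077 (minus strand) for Ctsd.
Ctsk: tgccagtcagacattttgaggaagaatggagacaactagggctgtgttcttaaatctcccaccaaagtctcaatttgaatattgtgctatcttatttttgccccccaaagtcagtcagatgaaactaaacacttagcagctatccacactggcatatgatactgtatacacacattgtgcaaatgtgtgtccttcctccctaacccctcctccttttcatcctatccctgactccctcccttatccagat
Ctss: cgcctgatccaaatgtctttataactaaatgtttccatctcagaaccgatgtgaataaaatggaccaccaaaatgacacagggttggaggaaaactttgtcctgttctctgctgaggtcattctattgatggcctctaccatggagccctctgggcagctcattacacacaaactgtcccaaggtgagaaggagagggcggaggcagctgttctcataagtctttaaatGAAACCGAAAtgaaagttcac
Ctsd: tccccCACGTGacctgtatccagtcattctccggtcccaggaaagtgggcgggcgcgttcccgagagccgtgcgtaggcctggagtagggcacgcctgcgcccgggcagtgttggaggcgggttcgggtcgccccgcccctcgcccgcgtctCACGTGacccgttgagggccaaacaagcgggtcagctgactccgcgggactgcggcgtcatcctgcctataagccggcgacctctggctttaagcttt
Both strands were searched. The response element core occurred in 2.98% of 32851 promoters and, of the 8 genes, in that of Ctss, at bases -21 to -12. CACGTG occurred in 6.02% of promoters and in those of Ctsd, with 2 matches, Ctsl and Lgmn, with 1 match each. The AP-1 site TGANTCA, in 6.75% of promoters, was in none of the 8. Overlapping the second Ctsd match was the longer TCACGTGA, which 0.785% of promoters hold. The Lgmn match was in promoter 2 of that gene and not in promoter 1. A match describes the letters and not a working site. The motifs were chosen after the promoters were read, and no link between a match and a difference was tested. Ctsk and Ctss are neighbours on chromosome 3, with 0 protein-coding genes between them.

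All 8 arrays hold the same sorted values, with a median of -0.63 on a scale read as log2, and all 10 genes lay above that median on all 8 arrays. Array pairs within a group correlated at r = 0.94 to 0.97 over the tested genes, and pairs between groups at 0.90 to 0.94. The labelled tissue fits its markers: all 7 measured alveolar type 2 genes were above the array median in each group. The SWCNT day 1 arrays also held transcripts of other tissues, with 9 of 11 skeletal muscle, 4 of 8 squamous epithelium and 4 of 7 adipocyte markers higher than in PF68 day 1. The gap between the 3′ and the 5′ probe sets of beta-actin, which grows as RNA is shortened, was 2.97 ± 0.04 in SWCNT day 7, 3.27 ± 0.03 in PF68 day 7, 1.34 ± 0.03 in SWCNT day 1 and 2.02 ± 0.02 in PF68 day 1 (SD, n = 2 each). The 18 bacterial spike probe sets differed by -0.53 between SWCNT and PF68 on day 7 and by 0.22 on day 1. Scaling to them adds 0.53 to every gene's day 7 difference and moves every day 1 difference by -0.22. The median of all genes then becomes 0.55 and -0.24, against 0.02 and -0.02 as deposited.

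On day 7 the cathepsins were higher in SWCNT than in PF68 lungs. All 8 cathepsins were called higher, Lgmn and Cst3 did not pass the test, and none of the 10 was called lower (limma, adjusted p under 0.05). Rise and fall within a day mean SWCNT against PF68 lungs of that day throughout. The PF68 lungs themselves changed between the days, as given below. Over all genes 1.4% were called higher and 0.78% lower on that day. With spike scaling, which adds 0.53 to every gene alike, all 10 were called higher, as were 42% of all genes. The median of the 10 differences was 0.93, against 0.02 over all genes tested. In every one of the 10 genes both SWCNT arrays lay above both PF68 arrays, as they did in 28.2% of all genes. Lung tissue is a mixture, so more cells of a type and more RNA per cell cannot be told apart here.

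**Figure D1:**
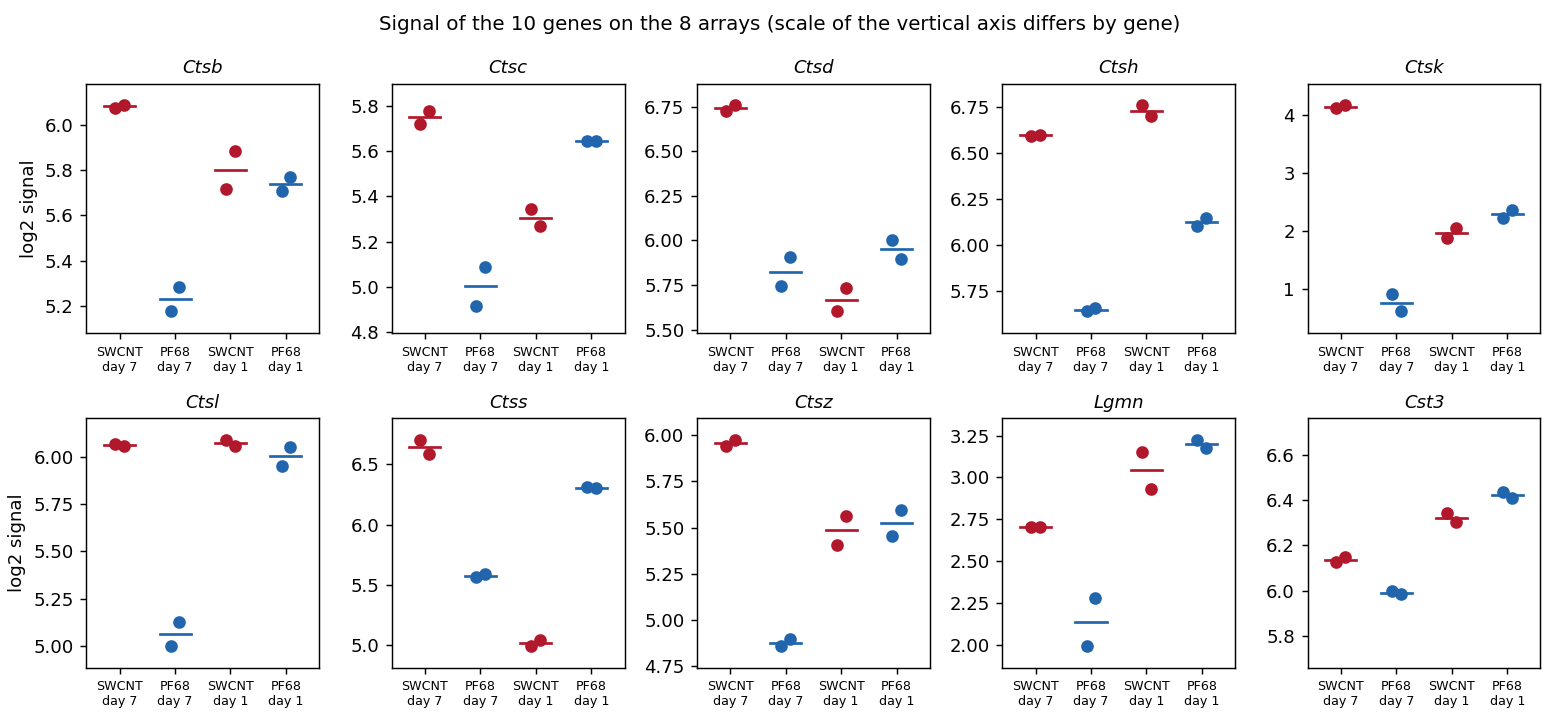
Log2 signal of each gene (vertical axis, 1 scale per gene) on the 2 arrays of SWCNT day 7, PF68 day 7, SWCNT day 1 and PF68 day 1 lungs. Points are arrays and lines are group means. The PF68 day 7 arrays are the lowest in 8 of the 10 genes, and the SWCNT day 7 arrays the highest in 6.

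Ctsk, cathepsin K, the collagen- and elastin-cutting enzyme best known from osteoclasts, had the largest change of the group. Its log2 signal was 4.12 and 4.17 in SWCNT day 7 lungs, against 0.90 and 0.61 in PF68 day 7 lungs. The difference was 3.39 ± 0.15 (log2 units with SE, 2 arrays in each group, adjusted p = 0.00419 in limma), the 2nd largest rise of the 13854 genes. On day 1 the SWCNT arrays read 1.87 and 2.05 and the PF68 arrays 2.23 and 2.36. The 4 groups did not overlap, and SWCNT day 7 stood above all others while PF68 day 7 stood below all others. Ctsk has 1 probe set.

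Ctss, cathepsin S, which trims the invariant chain and stays active near neutral pH, read 6.70 and 6.59 in SWCNT day 7 lungs, against 5.56 and 5.59 in PF68 day 7 lungs. The difference was 1.07 ± 0.10 (adjusted p = 0.0227). Ctsz, cathepsin Z, a carboxypeptidase of macrophages and other myeloid cells, read 5.94 and 5.97 in SWCNT and 4.86 and 4.90 in PF68 lungs on day 7, a difference of 1.08 ± 0.11 (adjusted p = 0.0246). Both genes thus had array gaps within groups that were far smaller than the gap between groups.

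Ctsl, cathepsin L, a broad endopeptidase of lysosomes, read 6.07 and 6.06 in SWCNT day 7 lungs, against 5.00 and 5.13 in PF68 day 7 lungs. It was higher by 1.00 ± 0.11 (adjusted p = 0.0246). Ctsh, an aminopeptidase that alveolar type 2 cells use to process surfactant protein precursors, read 6.59 and 6.60 in SWCNT and 5.64 and 5.66 in PF68 lungs. The Ctsh difference was 0.95 ± 0.10 (adjusted p = 0.0234). Of the 7 measured alveolar type 2 markers 1 was higher on day 7 and none lower, with a median difference of 0.06.

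Ctsd, cathepsin D, the aspartic protease of lysosomes, read 6.73 and 6.76 in SWCNT day 7 lungs and 5.75 and 5.91 in PF68 day 7 lungs, a difference of 0.92 ± 0.12 (adjusted p = 0.0353). Ctsb, cathepsin B, which leaks into the cytosol when lysosomes rupture, read 6.08 and 6.09 in SWCNT and 5.18 and 5.28 in PF68 lungs, a difference of 0.85 ± 0.11 (adjusted p = 0.0376). Ctsc, the dipeptidyl peptidase that activates granule serine proteases of neutrophils and other cells, read 5.72 and 5.78 in SWCNT and 4.92 and 5.09 in PF68 lungs. It differed by 0.74 ± 0.11 (adjusted p = 0.0423). Aside from Ctsk, the called cathepsins thus spanned a narrow range of differences.

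Lgmn, the endopeptidase that cuts after asparagine, read 2.70 and 2.70 in SWCNT day 7 lungs, against 1.99 and 2.28 in PF68 day 7 lungs. Its difference of 0.57 ± 0.14 missed the threshold (adjusted p = 0.0969). Cst3 read 6.13 and 6.15 in SWCNT and 6.00 and 5.99 in PF68 lungs, a difference of 0.15 ± 0.10 (adjusted p = 0.419). Cst3, the only inhibitor among the 10, had the smallest difference.

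The day 7 count rests on the full set of arrays. Counts at an unadjusted p and counts from fits that leave out arrays, here and in all later paragraphs, lack the share of all genes beside them. Whether they exceed that share was not tested. Without 1 or the other SWCNT day 7 array, 0 genes were called in limma (9 at an unadjusted p under 0.05). Without any 1 of the other 6 arrays Ctsk was the 1 gene called. The differences themselves moved little, Ctsk between 3.25 and 3.54 and Ctss between 1.01 and 1.12 over the 8 fits. Without both SWCNT day 1 arrays, a choice made after seeing the data, Ctsk alone was called.

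Some macrophage markers moved with these genes: 4 of 15 were higher on day 7, 11 did not pass and none was lower, with a median difference of 0.62. The summed level of all 15 (log2 of the summed linear values) was 8.38 on both SWCNT arrays, against 7.97 and 7.99 on the PF68 arrays. Chil3, the brightest of them (mean 7.24 in SWCNT and 6.94 in PF68), weighs most in that sum. Its difference of 0.30 ± 0.11 did not pass. Those that rose were Mmp12, the macrophage elastase, by 4.57 ± 0.18, Gpnmb by 2.23 ± 0.12, Msr1, a scavenger receptor, by 2.23 ± 0.36 and Cd68, a lysosomal membrane protein, by 1.61 ± 0.10. Csf1r, Adgre1 and Mertk, which macrophages also carry, were at -0.02 ± 0.11, 0.24 ± 0.28 and -0.32 ± 0.12 and did not pass. Neutrophil markers had 5 of 9 lower and 1 higher, with a summed level of 7.24 and 7.25 in SWCNT and 8.30 and 8.31 in PF68 lungs. Fibroblast markers had 3 of 8 higher and none lower (median 0.22), and monocyte markers 1 of 9 higher and 1 lower. Of the osteoclast markers Atp6v0d2, a proton pump subunit, rose by 1.11 ± 0.13, Mmp9, also a neutrophil marker, was lower (-0.91 ± 0.12), and the other 3 of 5, Acp5 among them (0.11 ± 0.16), did not pass. The part of these cell types in the cathepsin differences was not tested.

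On day 1 the group did not move as one. Of the 10 genes Ctss fell, Ctsh rose and 8 did not pass, where 1.23% of all genes were called lower and 0.931% higher. The median difference was -0.13, against -0.02 over all genes. The SWCNT and PF68 arrays did not overlap in 8 of the 10 genes, while 53.2% of all genes had no overlap.

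Ctss read 4.99 and 5.05 in SWCNT day 1 lungs, against 6.31 and 6.30 in PF68 day 1 lungs. The difference was -1.29 ± 0.10 (limma, adjusted p = 0.0074), among the 171 largest falls of all genes. The SWCNT day 1 arrays were the lowest of the 4 groups for Ctss. In the fits without 1 of the 4 day 1 arrays the difference stayed between -1.32 and -1.26, and its adjusted p was 0.0688 to 0.0773, so the call was lost.

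Interferon-induced genes moved with Ctss on day 1: 10 of 12 were lower and none higher, with a median difference of -2.49. Their summed level was 5.34 and 5.35 in SWCNT and 7.87 and 7.88 in PF68 day 1 lungs. In day 7 lungs it was 5.71 and 5.73 with SWCNT and 5.80 and 5.87 with PF68, so PF68 day 1 stood above the other groups. These genes did not follow Ctss on day 7, when Ctss was higher in SWCNT lungs. On that day 1 of the 12 was lower in SWCNT than in PF68 lungs and none higher (median 0.06). Of the class II genes whose loading Ctss serves, H2-Eb1 (-1.82 ± 0.15, adjusted p = 0.00771) and H2-Aa (-1.70 ± 0.18, adjusted p = 0.017) were lower. Cd74, the invariant chain that Ctss cuts, was at -0.56 ± 0.10 and missed the threshold (adjusted p = 0.0574). T and NK cell markers had 3 of 10 lower and none higher, with a median of -1.09 and a summed level of 4.002 and 4.01 in SWCNT and 5.19 and 5.24 in PF68 lungs. Monocyte markers had 3 of 9 lower and none higher (median -0.34). The 3 were Plac8 at -1.34 ± 0.13, Ms4a4c at -1.86 ± 0.17 and Nr4a1 at -1.93 ± 0.20. Of those that did not pass, Ace (0.35), F13a1 (0.19) and Chil3 (0.135) were above 0. Vcan (-0.41), Ccr2 (-0.34) and Fn1 (-0.09) were below 0. Dendritic cell markers had 1 of 8 lower, Bst2, which interferon also induces, and of 15 macrophage markers none passed. The part of these genes in the Ctss difference was not tested.

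Ctsh read 6.76 and 6.70 in SWCNT day 1 lungs, against 6.10 and 6.15 in PF68 day 1 lungs. The difference was 0.60 ± 0.10 (adjusted p = 0.0484), close to the threshold, and the other Ctsh probe set also gave 0.60. Without any 1 of the 8 arrays its adjusted p was 0.0763 to 0.239. With spike scaling it was 0.38 (adjusted p = 0.0997). None of the 7 alveolar type 2 markers passed on day 1, and their median was 0.20.

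The remaining 8 genes are given by their differences on day 1, none of which passed. Ctsc was at -0.34 ± 0.11 (adjusted p = 0.195), Ctsk at -0.33 ± 0.15 (0.302) and Ctsd at -0.28 ± 0.12 (0.281). Lgmn was at -0.16 ± 0.14, Cst3 at -0.10 ± 0.10 and Ctsz at -0.04 ± 0.12. Ctsb and Ctsl were at 0.06 ± 0.11 and 0.07 ± 0.11, and at -0.16 and -0.15 with spike scaling.

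**Figure D2:**
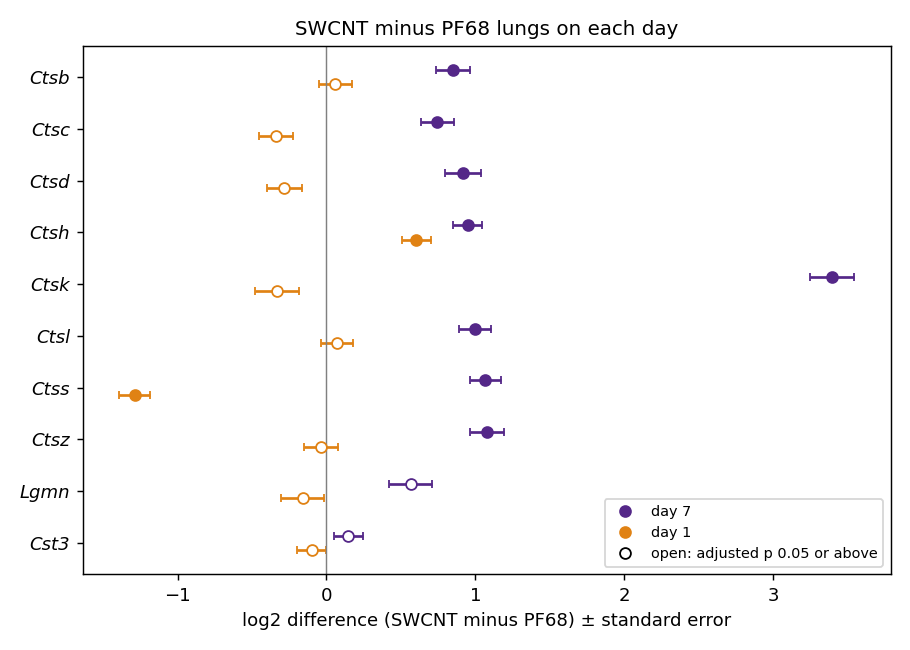
Log2 difference, SWCNT minus PF68 (horizontal axis), of each gene on day 7 and on day 1. Bars are standard errors of the limma fit and filled points have an adjusted p under 0.05. The 8 cathepsins are filled on day 7, Ctsk farthest right at 3.39, and only Ctss at -1.29 and Ctsh at 0.60 are filled on day 1.

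The SWCNT minus PF68 difference itself changed between the days. It was higher on day 7 than on day 1 in 6 of the 10 genes and lower in none, where 1.41% of all genes were called higher and 0.924% lower. With spike scaling, which shifts every gene by 0.75, all 10 were called higher, as were 43.4% of all genes. Ctsk differed by 3.73 ± 0.21 between the days (log2, day 7 difference minus day 1 difference; limma, adjusted p = 0.00513) and Ctss by 2.35 ± 0.15 (adjusted p = 0.00513). Ctsd followed with 1.20 ± 0.17 (adjusted p = 0.0375), Ctsz with 1.12 ± 0.16 and Ctsc with 1.08 ± 0.16 (adjusted p = 0.0396 each), and Ctsl with 0.93 ± 0.15 (adjusted p = 0.0482). Ctsb (0.79 ± 0.16, adjusted p = 0.0692), Lgmn (0.73 ± 0.20, 0.127), Ctsh (0.35 ± 0.14, 0.237) and Cst3 (0.25 ± 0.14, 0.37) did not pass as deposited. Ctss was the 1 gene of the 10 called on both days with opposite signs. In fits without 1 array the count was 0 without SWCNT day 1 replicate 1 (8 at an unadjusted p under 0.05 in limma) and 1, Ctsk, without either PF68 day 1 array. It was 2, Ctsk and Ctss, without SWCNT day 1 replicate 2 or any 1 day 7 array.

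The PF68 controls also changed between the days. In PF68 lungs 9 of the 10 genes were lower on day 7 than on day 1 and none was higher, where 8.86% of all genes were called lower and 8.86% higher. In 9 of the 10 genes both day 7 arrays lay below both day 1 arrays, as they did in 28.6% of all genes. The median of the 10 was -0.64, against 0.04 over all genes. Ctsk had the largest fall, with 0.90 and 0.61 on day 7 against 2.23 and 2.36 on day 1 (-1.54 ± 0.15, adjusted p = 0.00812). Lgmn was next with 1.99 and 2.28 on day 7 against 3.22 and 3.18 on day 1 (-1.07 ± 0.14, adjusted p = 0.0109). Ctsl read 5.00 and 5.13 on day 7 against 5.95 and 6.05 on day 1 (-0.94 ± 0.11, adjusted p = 0.00918). In all 3 the gap between the days was larger than the gap within each pair of arrays.

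The other PF68 falls were between -0.73 ± 0.10 for Ctss and -0.43 ± 0.10 for Cst3, and Ctsd was at -0.13 ± 0.12 (adjusted p = 0.497). The beta-actin gap was wider on day 7 than on day 1 in PF68 lungs, 3.27 against 2.02, and the spikes were higher by 0.60. With spike scaling, which shifts every gene by -0.60 (median of all genes -0.56), all 10 genes were called lower, as were 41.5% of all genes. Interferon-induced genes were lower too in PF68 lungs on day 7, with 10 of 12 called and a median of -2.42. Of the macrophage markers 4 of 15 were lower, among them Cd68 (-1.16 ± 0.10) and Mmp12 (-0.72 ± 0.18), and none was higher (median -0.21). Fibroblast markers had 5 of 8 lower and none higher (median -0.96), and monocyte markers 4 of 9 lower and none higher (median -0.46). Endothelial markers had 2 of 8 lower and T and NK cell markers 2 of 10, with none higher. Other lists went up, with 2 of 7 adipocyte (median 0.74), 2 of 7 ciliated and club (0.49) and 1 of 8 squamous epithelium markers (0.51) higher and none lower. The part of any of these in the cathepsin falls was not tested. Without either PF68 day 1 array 0 genes were called in limma (9 at an unadjusted p under 0.05). Without PF68 day 7 replicate 1 or 2 the counts were 4 and 5, and 6 to 8 without 1 of the SWCNT arrays.

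In SWCNT lungs 5 of the 10 genes were higher on day 7 than on day 1 and none was lower, where 9.59% of all genes were called higher and 6.7% lower. Arrays of the days did not overlap in 9 of the 10, as in 62.8% of all genes. Ctsk differed by 2.19 ± 0.15 (adjusted p = 0.00395), Ctss by 1.62 ± 0.10 (adjusted p = 0.00383) and Ctsd by 1.07 ± 0.12 (adjusted p = 0.00736). Ctsz (0.47 ± 0.12, adjusted p = 0.0453) and Ctsc (0.44 ± 0.11, adjusted p = 0.0492) passed narrowly. Ctsb was at 0.28 ± 0.11, Ctsl at -0.01 ± 0.11, Ctsh at -0.13 ± 0.10, Cst3 at -0.18 ± 0.10 and Lgmn at -0.34 ± 0.14, and none of these passed. The beta-actin gap was also wider on day 7, 2.97 against 1.34. All 11 skeletal muscle, all 7 adipocyte, 4 of 8 squamous epithelium, 6 of 9 neutrophil and 4 of 8 endothelial markers were lower and none of these was higher. Fibroblast markers had 4 of 8 lower and 1 higher, monocyte markers 3 of 9 lower and 3 higher, T and NK cell markers 3 of 10 higher, and macrophage markers 9 of 15 higher and 1 lower. The part of any of these was not tested. The count was 2 without either SWCNT day 7 array, 3 without any 1 day 1 array and 4 without either PF68 day 7 array.

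**Figure D3:**
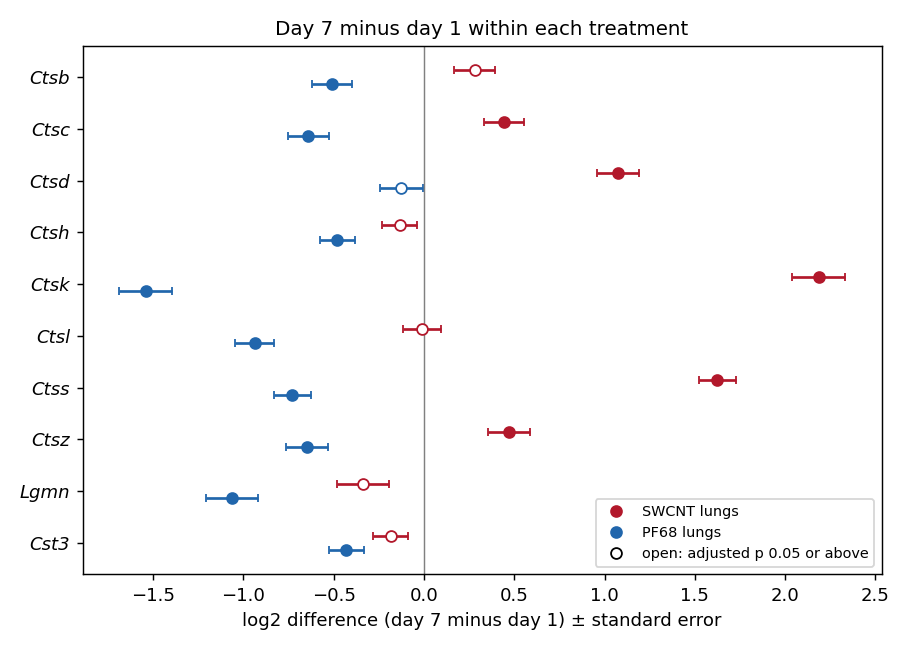
Log2 difference, day 7 minus day 1 (horizontal axis), of each gene within SWCNT lungs and within PF68 lungs. Bars are standard errors and filled points have an adjusted p under 0.05. All PF68 values lie below 0, while Ctsk, Ctss and Ctsd have the 3 largest SWCNT values.

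The order of the 4 groups differed between genes. It is read here from the brightest probe set of each gene, and other probe sets of Ctsb, Ctsh and Ctsz gave another order, as given below. PF68 day 7 was lowest in 8 genes, in each with no overlap with the next group, as in 12.5% of all genes, and SWCNT day 1 was lowest in Ctss and Ctsd. SWCNT day 7 was highest in Ctsb, Ctsc, Ctsd, Ctsk, Ctss and Ctsz, and in these 6 its arrays did not overlap with the next group, as in 9.73% of all genes. For Ctsc that gap was small, with 5.72 and 5.78 in SWCNT day 7 against 5.64 and 5.65 in PF68 day 1. SWCNT day 1 was highest in Ctsh, without overlap with SWCNT day 7, and in Ctsl, with overlap. PF68 day 1 was highest in Lgmn and Cst3. So Ctsh, Ctsl, Lgmn and Cst3 in SWCNT day 7 lungs did not exceed every day 1 group, although their day 7 arrays were above those of PF68 day 7. Among neighbours in the order, SWCNT day 1 and PF68 day 1 overlapped for Ctsb and Ctsz, and PF68 day 7 and PF68 day 1 for Ctsd.

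Of the 20 probe sets 18 passed the filter on low values, and 4 genes had more than 1 that passed. For Ctsb the other 3 passing probe sets gave 1.32, 1.61 and 0.94 on day 7, all above 0 like the 0.85 of the brightest, and 0.22, -0.36 and -0.37 on day 1. In PF68 lungs those 3 fell more steeply between the days, by 1.77, 1.52 and 0.84 on the log2 scale, than the brightest, which fell by 0.51. With the brightest of those 3, SWCNT day 7 (4.44 and 4.47) was below SWCNT day 1 (5.16 and 5.09) and PF68 day 1 (4.94 and 4.87). Its SWCNT day 7 minus day 1 difference was -0.67, against 0.28 with the main probe set. The dimmer Ctsb probe sets kept SWCNT day 7 highest. For Ctsz the others gave 0.63 and 1.24 on day 7, and 1 of them gave 0.23 for PF68 day 7 minus day 1, where the brightest gave -0.65. That probe set put PF68 day 7 (4.22 and 3.94) above PF68 day 1 (3.84 and 3.86) and SWCNT day 1 (3.83 and 3.80). Ctsh gave 0.71 on day 7 with its other probe set, and 0.04 for PF68 day 7 minus day 1 against -0.48. That Ctsh probe set put SWCNT day 7 (6.22 and 6.17) above SWCNT day 1 (6.08 and 6.03). The other 2 probe sets of Ctsc were much dimmer, with 0.05 and 0.55 on day 7, and -0.03 and 1.05 for PF68 day 7 minus day 1. With the mean of its probe sets Ctsc was at 0.45 on day 7 (adjusted p = 0.225) and at 0.13 for PF68 day 7 minus day 1 (adjusted p = 0.665), so both calls were lost.

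**Figure D4:**
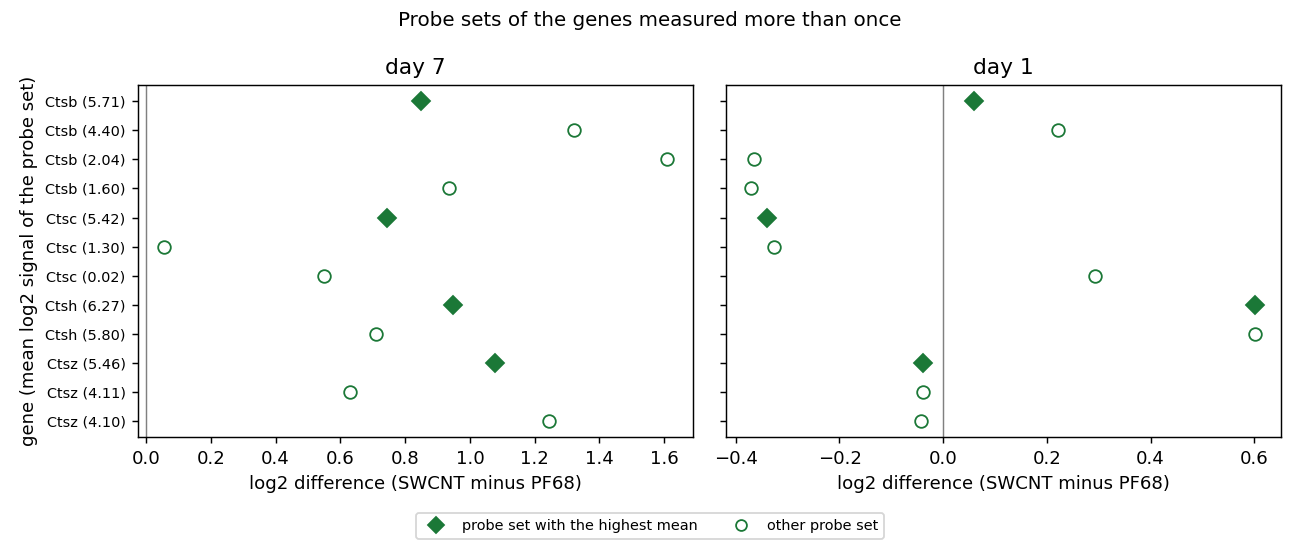
Log2 difference, SWCNT minus PF68 (horizontal axes), on day 7 and on day 1 for each passing probe set of Ctsb, Ctsc, Ctsh and Ctsz, with the probe set's mean signal in brackets. Diamonds mark the probe set with the highest mean. All probe sets lie above 0 on day 7, from 0.05 to 1.61, and those of Ctsb lie on both sides of 0 on day 1.

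Other cathepsins did not pass in any SWCNT minus PF68 comparison. Of 14 listed, 5 were measured, with a median day 7 difference of 0.09. Ctsf was at 0.69 ± 0.26 (adjusted p = 0.196), Ctsa at 0.55 ± 0.15 (0.106), and Ctse, an aspartic cathepsin of endosomes, at -0.54 ± 0.23 (0.233) on day 7. On day 1 Ctse was at -0.91 ± 0.23 (adjusted p = 0.123). Of 19 cystatins and other cathepsin inhibitors 6 were measured. Stfa2l1, of the stefin A group of intracellular inhibitors, fell on day 7, with 1.18 and 1.06 in SWCNT against 2.38 and 2.37 in PF68 lungs (-1.25 ± 0.12, adjusted p = 0.0217). The difference between the days was -1.10 ± 0.17 (adjusted p = 0.0448), and neutrophil markers were lower on day 7 as well, as given above. Ctla2a, similar to cathepsin propeptides, fell on day 1 (-0.84 ± 0.10, adjusted p = 0.0239). Cstb, cystatin B, was at 0.41 ± 0.11 on day 7 and 0.31 ± 0.11 on day 1 and did not pass.

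All 16 genes of sorting, activation and transcriptional control were measured, and 0 passed on day 1 (limma) while 1 rose and 1 fell on day 7. Psap, prosaposin, which lysosomes split into activators of lipid breakdown, rose by 0.77 ± 0.12 (adjusted p = 0.0455). Mcoln1, a lysosomal calcium channel, fell (-0.82 ± 0.11, adjusted p = 0.0353). The mannose 6-phosphate receptor gene M6pr was at 0.59 ± 0.12 (adjusted p = 0.0674). The transcription factor genes were at 0.74 ± 0.20 for Mitf, -0.05 ± 0.32 for Tfeb and -0.15 ± 0.14 for Tfe3 and did not pass, beside the E-box matches printed for Ctsd. The median of the list was 0.12 on day 7 and -0.14 on day 1.

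Among 10 measured substrates in antigen presentation and matrix, 5 rose and 1 fell on day 7, with a median of 0.56. The 5 were matrix genes: Fn1, fibronectin, by 1.47 ± 0.10 (adjusted p = 0.0114), Eln, elastin, by 1.06 ± 0.10, and the collagen genes Col1a2, Col3a1 and Col1a1 by 0.82 ± 0.12, 0.80 ± 0.11 and 0.74 ± 0.12. H2-Eb1 was the 1 that fell (-1.37 ± 0.15, adjusted p = 0.0256). In PF68 lungs all 5 of these matrix genes were lower on day 7 than on day 1, as 7 of the 8 cathepsins, Lgmn and Cst3 were. In SWCNT lungs Col1a1 (-1.34 ± 0.12) and Col1a2 (-0.52 ± 0.12) were also lower on day 7 than on day 1. Fn1 was higher there (0.62 ± 0.10), while Eln (-0.10 ± 0.10) and Col3a1 (-0.16 ± 0.11) did not pass. On day 1 Col1a1 also rose, by 0.74 ± 0.12 (adjusted p = 0.0487). The difference between the days passed for Fn1 (1.55 ± 0.14) and H2-Ab1 (1.14 ± 0.19).

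The genes whose pattern over the 8 arrays was most like that of Ctsk were Rps6ka3 (Pearson r = 0.99), Pgap2 and Letmd1 (0.97 each), Psap and Hmgb3 (0.96 each). For Ctss they were Nans (0.99), Arfip1 and Atp5l (0.98 each), Ctnnb1 and Chia1 (0.98 each). Among the members Ctsb and Ctsz were most alike (r = 0.99). These are descriptions over 8 arrays in 4 groups of 2, which share the group differences above. The lists for Ctsk and Ctss were picked from the 13854 genes with predicted and unnamed genes left out.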

How the data were processed

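Biotin-labelled total RNA was hybridized to single-colour Affymetrix arrays, per the labels' protocols. The authors deposited 1 value per probe set and array, read here as log2. The submitters' processing notes name RMA, without version or settings, and state neither the log base nor an offset. A different base would rescale every difference by 1 factor and leave tests and calls as they are. Sorted, the 8 columns were identical (SD 0), as after quantile normalization, so differences are relative to a common distribution.

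The table held 45101 probe sets. Of these, 64 controls and 8 with a missing value were left out, and 34945 were listed with 1 symbol, updated through gene IDs to RefSeq GRCm38.p6. A probe set was kept (23308 were) if 2 or more of the 8 arrays gave it a value no lower than the array median. The brightest kept probe set on average stood for each of the 13854 genes. All 8 arrays entered 1 limma fit of 4 group means (version 3.58.1 in R 4.3.3), moderated with eBayes, which added 1.81 degrees of freedom to the 4 residual ones. P-values were adjusted by Benjamini-Hochberg over all genes within each contrast and called under 0.05. The procedure was tested on simulated data. Array values carry no depth, so precision rests on the spread within the 4 groups of 2 arrays, pooled and moderated as above.

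The members, pathway lists, marker lists and promoter motifs were chosen with earlier results of these data known, and the motifs after reading the promoters. The text names all 10 members, the genes of each pathway list called in a SWCNT minus PF68 contrast (either day, or their difference) or else the 2 largest differences of the list, and the 5 genes most correlated with Ctsk and with Ctss. Predicted and unnamed genes were left out of the correlation lists. Further list and marker genes were named after their values were seen. Alternatives were the filter, the probe set rule, the variance model, array weights, spike scaling, the arrays in the fit, a replicate block and leaving out arrays. Figures were drawn with matplotlib 3.10.9.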

Additional observations from a re-analysis of the deposited data

Results flagged for a closer look

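For 6 genes the SWCNT minus PF68 difference was not the same on day 7 and on day 1, by the interaction term of the limma fit over all genes (adjusted p under 0.05). The day 7 difference exceeded the day 1 difference by 3.73 for Ctsk, 2.35 for Ctss, 1.20 for Ctsd, 1.12 for Ctsz, 1.08 for Ctsc and 0.93 for Ctsl, all on the log2 scale. With the mean of the probe sets of a gene, Ctsc (0.57), Ctsl (0.93) and Ctsz (1.03) no longer passed.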

How the results depend on the processing

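The number of called genes among the 10 depended on the processing, mostly through the adjusted p. The cause of each change was not tested. The counts in this section lack the share of all genes called in the same fit, so they are not results about the 10 genes alone. Of 910 refitted differences, 309 moved at all, since most settings change the variance or the number of genes and not the group means, and 11 of these changed sign. For SWCNT minus PF68 on day 7 (8 called), no filter left 1, testing every probe set 5, array weights 5, the replicate block 1, leaving out both SWCNT day 1 arrays 1, and the 4 day 7 arrays alone 0 (9 at an unadjusted p under 0.05, limma); fits without 1 array gave 0 to 1. On day 1 (2 called) limma-trend gave 4, the 4 day 1 arrays alone 0 (3 unadjusted), fits without 1 array 0 to 1, and no filter, the mean of probe sets, every probe set, robust eBayes, spike scaling and the replicate block 1 each. For the difference between the days (6 called) spike scaling gave 10, no filter, every probe set and the replicate block 2 each, and fits without 1 array 0 to 2. For day 7 minus day 1 in SWCNT (5 called) no filter, every probe set and the replicate block gave 3 each, the contrast's arrays alone 0 (5 unadjusted) and fits without 1 array 2 to 4. In PF68 (9 called) the mean of probe sets gave 5, the contrast's arrays alone 0 (9 unadjusted) and fits without 1 array 0 to 8. Fits on 1 contrast's arrays have fewer residual degrees of freedom by construction. Same-numbered replicates of different groups did not deviate together over all genes (r from -0.01 to 0.01), so no broad shift shared by replicate number was seen. A pairing with small effects, or with effects that differ by group, would not show in these correlations. Of the values that changed sign, 1 was called as reported, Ctsc for PF68 day 7 minus day 1, at 0.13 with the mean of probe sets. The others were Ctsb on day 1 (-0.11 with the mean of probe sets, -0.16 with spike scaling), Ctsl on day 1 (-0.15 with spike scaling), Ctsh (0.005 with the mean of probe sets, 0.017 with spike scaling) and Ctsl (0.14 with spike scaling) for SWCNT day 7 minus day 1. Without 1 array, Ctsb on day 1 ranged from -0.023 to 0.143, Ctsz on day 1 from -0.12 to 0.04 and Ctsl for SWCNT day 7 minus day 1 from -0.026 to 0.005. With 2 arrays per group, a value that missed the threshold is not shown to be equal between groups.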
